A study of Mus musculus with 8 samples.

Results

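A set of 8 genes that write, copy or remove DNA methylation was followed through early B cell development in mouse bone marrow. The genes were Dnmt1, Dnmt3a, Dnmt3b, Uhrf1, Tet1, Tet2, Tet3 and Tdg. They were taken by name, though with earlier results of these data known, and all 8 were found among the 27179 rows of the table of RNA-seq counts. The study asked what the ETS-family transcription factor Erg does in B lymphopoiesis, and RNA was sequenced from sorted pre-proB, proB and preB cells, the successive progenitor stages of the B lineage. There were 4 groups of 2 libraries. The control groups were pre-proB, proB and preB cells of Ergfl/fl mice, which carry loxP-flanked Erg alleles and no Cre allele. The remaining group was pre-proB cells of Rag1CreT/+;ErgΔ/Δ mice, called Erg-deficient below, in which Cre under the control of Rag1 deletes the floxed alleles from the common lymphoid progenitor onwards. All mice were 7 to 10 weeks old, and the populations were sorted separately from 2 mice of each genotype. Because the controls lack Cre, the presence of Cre and the loss of Erg cannot be told apart in the genotype comparison.

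Methylation of cytosine in CpG dinucleotides is copied at each round of DNA replication. Uhrf1 binds hemimethylated CpGs behind the replication fork and recruits Dnmt1, the maintenance methyltransferase, which methylates the new strand. Dnmt3a and Dnmt3b are the de novo methyltransferases, which methylate sites that were unmethylated. Tet1, Tet2 and Tet3 oxidise 5-methylcytosine, and Tdg, thymine DNA glycosylase, excises the most oxidised forms so that base excision repair can restore an unmodified cytosine. Methylation is also lost passively when replication is not followed by maintenance. In the B lineage, Tet2 and Tet3 are known to be needed together for enhancer demethylation and light chain rearrangement, and Dnmt3a and Dnmt3b are known to be needed together to keep B cell enhancers in check.

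The libraries held 15565381 to 18457632 counted fragments, and replicates of every group differed by more than sampling noise. Erg was at 69.1 and 25.4 CPM (counts scaled to library size with TMM normalisation) in the 2 Ergfl/fl pre-proB libraries and at 2.50 and 2.58 CPM in the Erg-deficient libraries, so the labels and the targeted gene matched, although counts per gene do not tell deleted from retained exons. The pre-proB libraries stood apart from the others in their markers. The summed level of 8 plasmacytoid dendritic cell markers was 12434 to 15095 CPM in the 4 pre-proB libraries and 411 to 548 CPM in the proB and preB libraries, and none of the 8 was at 0 in any library. Natural killer markers summed to 199 to 360 CPM against 5.13 to 10.5 CPM, although the gates excluded cells bearing NK1.1 or CD11c. T cell markers summed to 608 to 1427 CPM against 3.26 to 14.4 CPM. A few members made most of these last sums in the pre-proB libraries. Klrd1 gave 61.0% to 87.7% of the natural killer sum, the other 7 lying at 0.514 to 36.7 CPM. Cd4 and Cd8a gave 95.8% to 98.1% of the T cell sum, the other 6, among them Cd3e and Trbc1, lying at 0.578 to 11.9 CPM. At most 1 of the 8 natural killer markers and 1 of the 8 T cell markers was at 0 in any library. The 10 B lineage markers, among them Ebf1, Pax5 and Cd79a, summed to 1803 and 901 CPM in Ergfl/fl pre-proB replicates 1 and 2, to 406 and 403 CPM in the Erg-deficient libraries, and to 4981 to 8213 CPM in proB and preB cells. In the Erg-deficient libraries Blnk and Cd79b gave 95.2% and 94.2% of the sum, and each of the other 8 lay at or below 8.46 CPM. Ebf1 was at 59.1 and 21.3 CPM in Ergfl/fl and at 0.438 and 0.517 CPM in Erg-deficient pre-proB cells, and the median log2 difference of the 10 was -5.39. These are bulk libraries, so fewer cells of a type and less RNA per cell cannot be told apart, and what part the other cell types had in the values below was not tested.

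**Figure D1:**
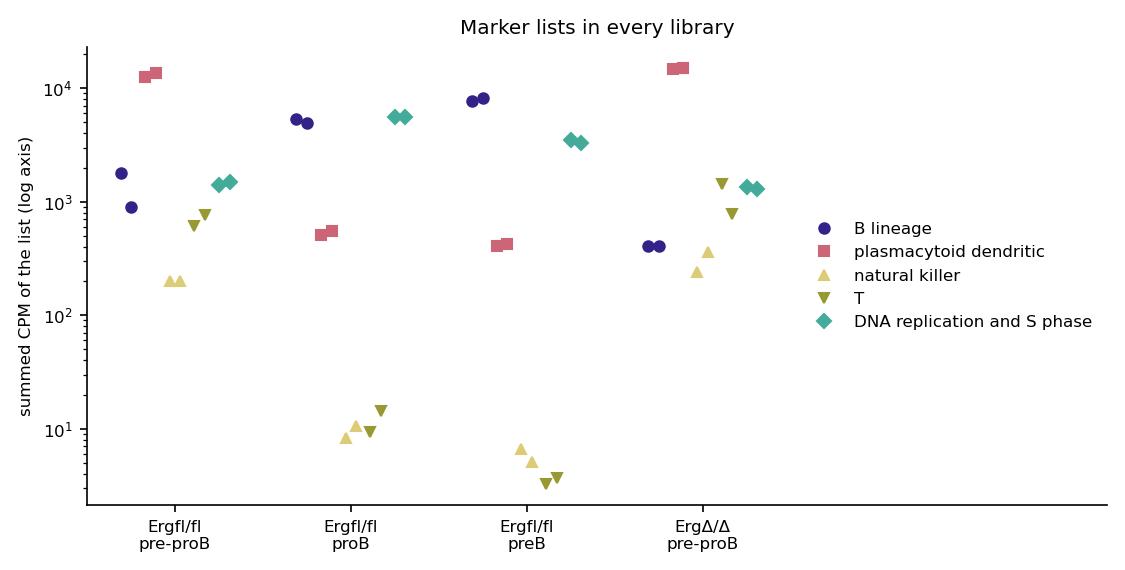
Summed CPM (log axis) of 5 marker gene lists in each of the 8 libraries, 2 points per group and list. The dendritic, natural killer and T cell sums are higher in all 4 pre-proB libraries than in the others. There Klrd1 makes most of the natural killer sum, and Cd4 and Cd8a make most of the T cell sum. The replication list is highest in proB cells, at 5610 and 5623 CPM.

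The promoters of Dnmt1 and Uhrf1 are shown because these genes rose most of the 8 between pre-proB and proB cells, together with that of Tet2, which fell most. Each is a RefSeq window on GRCm38.p6 from 250 bases before to 50 bases after an annotated start, in the direction of transcription. The 8 genes have 13 such windows, among them 3 for Dnmt1, 2 for Uhrf1 and 1 for Tet2. For Dnmt1 and Uhrf1 the window printed is the one with E2F matches, picked after the search. Each was searched on both strands for letters bound by E2F factors, which drive S phase genes (TTTGGCGC, TTTCGCGC, TTTCCCGC or TTTGCCGC), and for an extended ETS site, the class of site that Erg binds (CCGGAAGT or CCGGAAGC). Capitals mark the E2F matches.
Dnmt1, chr9:20952574-20952873, minus strand: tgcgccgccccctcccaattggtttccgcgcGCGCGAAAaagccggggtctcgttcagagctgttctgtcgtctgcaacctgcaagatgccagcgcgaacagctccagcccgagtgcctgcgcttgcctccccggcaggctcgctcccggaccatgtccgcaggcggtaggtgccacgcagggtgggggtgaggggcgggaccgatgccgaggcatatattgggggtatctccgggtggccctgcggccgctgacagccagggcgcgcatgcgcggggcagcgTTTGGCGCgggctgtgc
Uhrf1, chr17:56304063-56304362, plus strand: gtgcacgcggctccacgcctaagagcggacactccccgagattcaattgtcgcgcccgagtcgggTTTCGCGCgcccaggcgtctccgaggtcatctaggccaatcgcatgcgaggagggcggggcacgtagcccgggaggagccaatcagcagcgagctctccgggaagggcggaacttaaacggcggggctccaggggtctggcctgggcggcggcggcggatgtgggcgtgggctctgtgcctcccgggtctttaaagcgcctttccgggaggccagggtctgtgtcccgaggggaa
Tet2, chr3:133544341-133544640, minus strand: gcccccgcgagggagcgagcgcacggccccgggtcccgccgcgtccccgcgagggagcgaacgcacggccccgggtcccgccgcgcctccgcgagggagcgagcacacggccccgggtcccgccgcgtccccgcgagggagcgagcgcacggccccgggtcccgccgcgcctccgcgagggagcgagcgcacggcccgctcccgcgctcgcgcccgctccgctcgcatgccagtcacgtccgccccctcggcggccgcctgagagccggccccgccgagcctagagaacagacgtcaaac
The Dnmt1 window shown held 2 E2F matches, one beginning 219 bases before the annotated start of that window and the other 33 bases after that start. The Uhrf1 window shown held 1, beginning 185 bases before its own annotated start. These were the only 2 of the 13 member windows with an E2F match, and 2.26% of all 32851 windows of the same length held one. The ETS letters were in 0 of the 13 windows and in 6.42% of all windows, which says only that these letters are not in these windows. The windows shown held 33 CpG for Dnmt1, 33 for Uhrf1 and 57 for Tet2, against a median of 7 over all windows. Every string searched for contains a CpG, and the share with a match among windows of like CpG content was not counted. The 2 Dnmt1 windows not shown held 12 and 2 CpG and the Uhrf1 window not shown held 12. These lie upstream of the windows shown, and which start the cells use was not tested. A match is a run of letters and not evidence of binding.

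Across the Ergfl/fl stages the genes moved in opposing directions. From pre-proB to proB cells all 8 differed at an adjusted p below 0.05, 4 higher in proB cells (Dnmt1, Uhrf1, Dnmt3b and Tdg) and 4 lower (Dnmt3a, Tet1, Tet2 and Tet3). Of 13650 genes tested, 73.0% passed the same threshold, 36.2% higher and 36.8% lower, so a call is common in this comparison and the sizes and directions carry the description. From proB to preB cells 6 of the 8 differed, 2 higher and 4 lower, against 58.9% of all genes, 29.0% higher and 29.9% lower. Between pre-proB and preB cells 7 of the 8 differed, 3 higher and 4 lower, against 70.7% of all genes, 36.5% higher and 34.1% lower. The median of all genes lay within 0.04 of 0 on the log2 scale in each comparison. The comparisons share libraries, and replicates measure the spread between mice of one genotype.

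**Figure D2:**
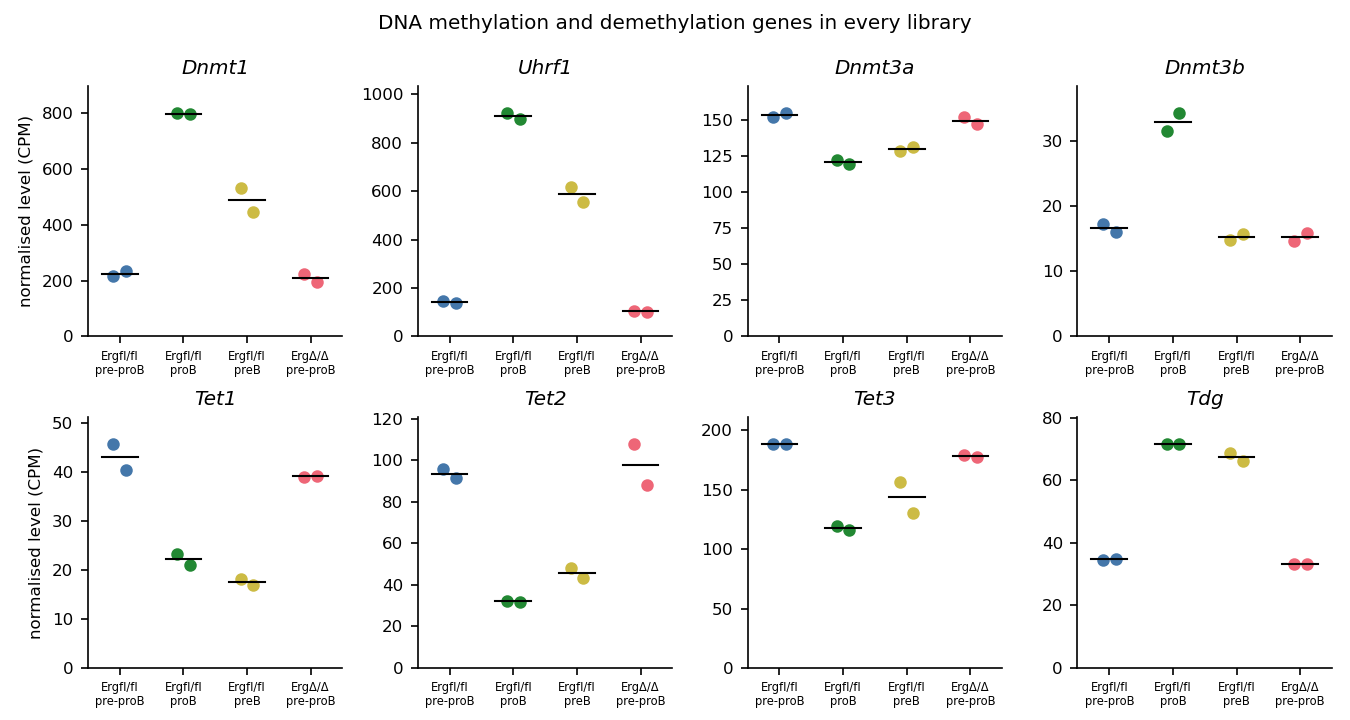
Level of each gene in every library (CPM, linear axes from 0), with 2 points per group and a bar at their mean. Dnmt1, Uhrf1 and Dnmt3b peak in Ergfl/fl proB cells, Tdg is high in both proB and preB cells, and the 3 Tet genes are highest in pre-proB cells of both genotypes.

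Dnmt1 (Entrez 13433, chr9:20907206-20959888, minus strand) was at 216 and 233 CPM in Ergfl/fl pre-proB cells, 800 and 794 CPM in proB cells, 529 and 444 CPM in preB cells, and 223 and 193 CPM in Erg-deficient pre-proB cells. The 3 Ergfl/fl groups did not overlap, proB cells were highest, and the 2 genotypes of pre-proB cells overlapped. Dnmt1 rose 3.63-fold from pre-proB to proB cells (log2 fold change 1.86 ± 0.0947 SE, adjusted p = 3.68e-07, edgeR's quasi-likelihood F-test, Benjamini-Hochberg adjusted over all genes, as for every adjusted p below). From proB to preB cells it fell by 0.70 on the log2 scale (SE 0.0916, adjusted p = 0.000275), and preB cells remained 2.23-fold above pre-proB cells (log2 fold change 1.16 ± 0.0933 SE, adjusted p = 6.87e-06).

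Uhrf1 (Entrez 18140, chr17:56303337-56323486, plus strand), the partner that brings Dnmt1 to hemimethylated DNA, had the widest range of the 8. It was at 145 and 137 CPM in Ergfl/fl pre-proB cells, 924 and 898 CPM in proB cells, 618 and 556 CPM in preB cells, and 106 and 100 CPM in Erg-deficient pre-proB cells. No 2 groups overlapped. Uhrf1 rose 6.61-fold from pre-proB to proB cells (log2 fold change 2.72 ± 0.0799 SE, adjusted p = 1.91e-08). It fell by 0.63 from proB to preB cells (SE 0.0745, adjusted p = 0.000171) and stayed 4.28-fold above pre-proB cells there (log2 fold change 2.10, adjusted p = 6.62e-08).

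Genes of DNA replication moved in the same order. All 20 of 20 listed replication genes, the Mcm helicase subunits, Rrm2 and Tyms among them, were higher in proB than in pre-proB cells (median log2 fold change 1.97), and all 20 were lower in preB than in proB cells (median -0.71). The 10 mitosis genes did the same, with medians of 2.22 and -0.51. Of all genes, 36.2% were called higher in the first of these comparisons and 29.9% lower in the second. The replication list summed to 1396 and 1506 CPM in Ergfl/fl pre-proB cells, 5610 and 5623 CPM in proB cells, 3471 and 3274 CPM in preB cells and 1355 and 1293 CPM in Erg-deficient cells. Set against these sums, Dnmt1 varied less than Uhrf1. It was at 155 and 155 CPM per 1000 CPM of the list in Ergfl/fl pre-proB cells, 143 and 141 in proB cells, 152 and 136 in preB cells, and 165 and 149 in Erg-deficient cells, a range from 136 to 165 over all 8 libraries. The Uhrf1 ratio was 104 and 91.2 in Ergfl/fl pre-proB cells, 165 and 160 in proB cells, 178 and 170 in preB cells, and 77.9 and 77.6 in Erg-deficient cells, with no overlap between any 2 groups. An exact permutation test of the log2 ratio over the 4 groups (F statistic) gave p = 0.0095 for Uhrf1, the smallest it can give, and p = 0.31 for Dnmt1 (adjusted over these 2 tests, 0.019 and 0.31). This test was picked after the ratios were seen, so the p for Uhrf1 adds no support. How often the ratio of other genes to the list lacks overlap between the groups was not counted, so that lack is a description. The test also took the 8 libraries as exchangeable, although the control stages may share mice. The p for Dnmt1 does not show that its ratio was the same in all groups.

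**Figure D3:**
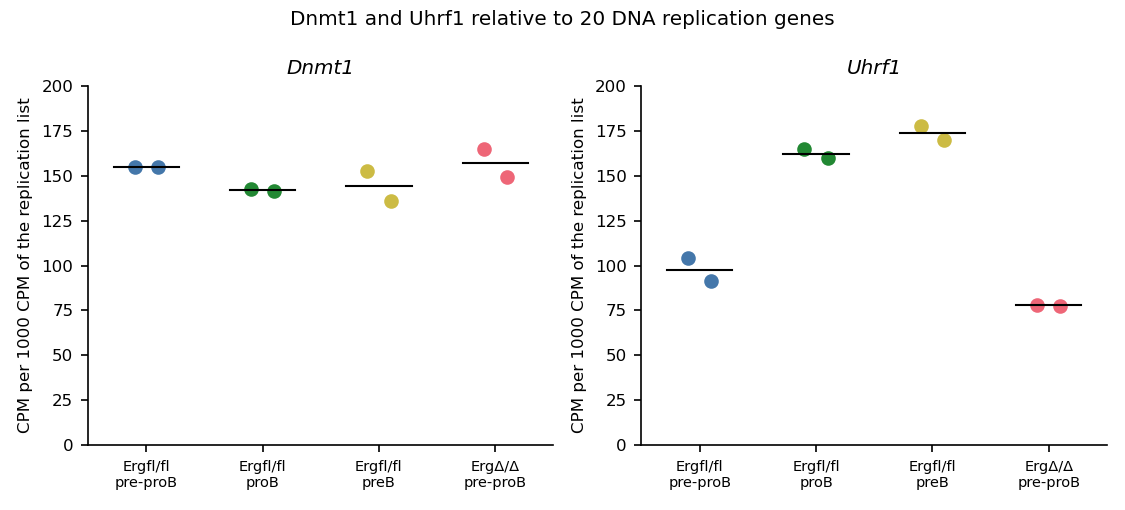
Dnmt1 and Uhrf1 in each library as CPM per 1000 CPM summed over 20 DNA replication genes, with a bar at each group's mean. Dnmt1 lies between 136 and 165 in every library, and Uhrf1 runs from 77.6 in Erg-deficient pre-proB cells to 178 in preB cells.

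Dnmt3a (Entrez 13435, chr12:3801559-3914443, plus strand) varied least of the 8. It was at 152 and 155 CPM in Ergfl/fl pre-proB cells, 122 and 120 CPM in proB cells, 128 and 131 CPM in preB cells, and 152 and 147 CPM in Erg-deficient cells. The pre-proB libraries of both genotypes lay above all proB and preB libraries. It fell by 0.31 on the log2 scale from pre-proB to proB cells (SE 0.0558, adjusted p = 0.00102) and was 0.11 higher in preB than in proB cells, which did not pass (adjusted p = 0.124, 95% interval -0.019 to 0.24).

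Dnmt3b (Entrez 13436, chr2:153649411-153687730, plus strand), the other de novo enzyme, peaked in proB cells alone. It was at 17.3 and 16.1 CPM in Ergfl/fl pre-proB cells, 31.5 and 34.3 CPM in proB cells, 14.8 and 15.7 CPM in preB cells, and 14.6 and 15.9 CPM in Erg-deficient cells. It rose 2.02-fold from pre-proB to proB cells (log2 fold change 1.02 ± 0.0962 SE, adjusted p = 1.70e-05) and fell by 1.10 from proB to preB cells (SE 0.0962, adjusted p = 3.47e-05). Pre-proB and preB cells were not told apart (log2 difference -0.08, adjusted p = 0.487, 95% interval -0.31 to 0.15). Per length, in FPKM (CPM divided by kilobases of annotated exon), Dnmt3a exceeded Dnmt3b in all 8 libraries. The Dnmt3b share of their summed FPKM was 20.7% and 19.2% in Ergfl/fl pre-proB cells, 37.1% and 39.6% in proB cells, 20.9% and 21.5% in preB cells, and 18.0% and 19.8% in Erg-deficient cells. The sum itself moved between 16.4 and 20.01 FPKM.

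The 3 Tet genes were all lower in proB than in pre-proB cells and then parted. Tet2 (Entrez 214133, chr3:133463677-133545136, minus strand) was at 95.6 and 91.4 CPM in Ergfl/fl pre-proB cells, 32.4 and 31.8 CPM in proB cells, 48.4 and 43.3 CPM in preB cells, and 108 and 88.2 CPM in Erg-deficient cells. The 2 genotypes of pre-proB cells overlapped, and every other pair of groups did not. Tet2 fell by 1.51 on the log2 scale from pre-proB to proB cells (SE 0.0714, adjusted p = 2.42e-07), the largest fall of the 8, and rose 1.44-fold from proB to preB cells (log2 fold change 0.52 ± 0.0732 SE, adjusted p = 0.000418). PreB cells still lay 0.99 below pre-proB cells on the log2 scale.

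Tet3 (Entrez 194388, chr6:83362373-83457208, minus strand) was at 188 and 188 CPM in Ergfl/fl pre-proB cells, 120 and 116 CPM in proB cells, 157 and 131 CPM in preB cells, and 179 and 177 CPM in Erg-deficient cells. ProB cells were lowest, and the preB libraries lay between them and the pre-proB libraries. It fell by 0.64 from pre-proB to proB cells (SE 0.0827, adjusted p = 0.000123) and rose 1.22-fold from proB to preB cells (log2 fold change 0.29 ± 0.0829 SE, adjusted p = 0.0150). The latter call was lost without proB replicate 1 (adjusted p = 0.0614), proB replicate 2 (0.111) or preB replicate 1 (0.0660).

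Tet1 (Entrez 52463, chr10:62804570-62887469, minus strand) kept falling. It was at 45.7 and 40.6 CPM in Ergfl/fl pre-proB cells, 23.4 and 21.0 CPM in proB cells, 18.1 and 16.9 CPM in preB cells, and 39.1 and 39.3 CPM in Erg-deficient cells. Tet1 fell by 0.92 from pre-proB to proB cells (SE 0.0942, adjusted p = 2.74e-05) and by 0.34 from proB to preB cells (SE 0.0994, adjusted p = 0.0176). The second fall did not pass without proB replicate 1 (adjusted p = 0.117) or preB replicate 2 (0.0754).

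Per length, Tet3 was the most abundant Tet transcript and Tet1 the least in all 8 libraries. The summed Tet FPKM was 29.6 and 28.8 in Ergfl/fl pre-proB cells, 15.3 and 14.8 in proB cells, 19.9 and 17.0 in preB cells, and 29.7 and 27.4 in Erg-deficient cells. The Tet2 share of the sum was 35.1% and 34.5% in Ergfl/fl pre-proB cells and 23.0% and 23.3% in proB cells, while the Tet3 share was 54.1% and 55.7% in the former and 66.4% and 66.8% in the latter. Tet1 made up 9.80% to 10.7% of the sum in those 4 libraries and 6.34% and 6.89% in preB cells.

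**Figure D4:**
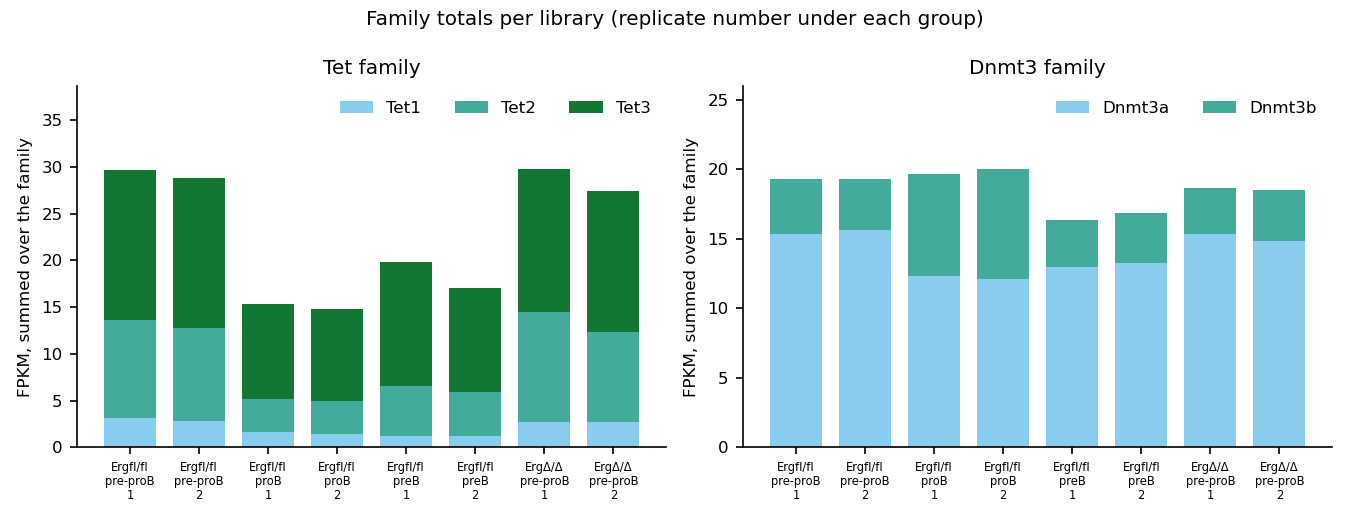
Stacked FPKM of the Tet genes (left) and of Dnmt3a and Dnmt3b (right) in each library. The Tet total falls from 29.6 and 28.8 in Ergfl/fl pre-proB cells to 15.3 and 14.8 in proB cells, while the Dnmt3 total stays between 16.4 and 20.01 and the Dnmt3b part is widest in proB cells.

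Tdg (Entrez 21665, chr10:82629814-82650799, plus strand), the glycosylase downstream of the Tet enzymes, moved against the 3 Tet genes from pre-proB to proB cells. It was at 34.7 and 34.8 CPM in Ergfl/fl pre-proB cells, 71.5 and 71.6 CPM in proB cells, 68.7 and 66.4 CPM in preB cells, and 33.1 and 33.1 CPM in Erg-deficient cells. All proB and preB libraries lay above all pre-proB libraries. Tdg rose 2.11-fold from pre-proB to proB cells (log2 fold change 1.08 ± 0.0607 SE, adjusted p = 6.76e-07) and was not told apart between proB and preB cells (log2 difference -0.08, adjusted p = 0.287, 95% interval -0.21 to 0.06). Counts at the processed copy Tdg-ps2 were 3 to 17 per library against 513 to 1391 at Tdg. Dnmt3aos, Dnmt3bos, Gm42567, B230319C09Rik and Glt8d2 lie on the opposite strand of Dnmt3a, Dnmt3b, Tet2, Tet3 and Tdg, and since the strand setting of the counting is not given, reads from such a pair cannot be told apart.

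The 50 further genes of the pathway, held in 7 lists, included 46 that could be tested across stages. Of these, 26 (56.5%) were higher and 10 (21.7%) lower in proB than in pre-proB cells, against 36.2% and 36.8% of all genes. From proB to preB cells 20 (43.5%) were higher and 15 (32.6%) lower, against 29.0% and 29.9% of all genes. The counts of the single lists below are to be read against the same shares, and with 3 to 11 testable genes a list they are descriptions. Of the 7 maintenance partners, 6 were higher in proB than in pre-proB cells and 5 lower in preB than in proB cells. Hells, Cdca7, Pcna and Lig1 rose, fell and stayed above their pre-proB level as Dnmt1 and Uhrf1 did, and Pcna and Lig1 also act in replication itself. Cdca7l rose as well but ended below its pre-proB level in preB cells (log2 difference -0.58, adjusted p = 0.000416). Uhrf2 rose 1.61-fold into proB cells and was not told apart between proB and preB cells (log2 difference 0.07, adjusted p = 0.302). Usp7, a deubiquitinase that acts on Uhrf1 and Dnmt1, was called in none of the 3 stage comparisons, with levels of 367 to 392 CPM in the 6 Ergfl/fl libraries. Base excision repair, the route downstream of Tdg, had 7 of 11 higher and 2 lower in proB cells, and 4 higher and 4 lower in the step to preB cells. Of the Tet partners and the enzymes that supply their cofactor, 1 was higher and 3 were lower of the 4 tested in proB cells, and 3 were higher in preB than in proB cells. Among 8 readers of methylated CpG, 3 (37.5%) were higher and 2 (25.0%) lower in proB than in pre-proB cells, close to the share of all genes for the higher calls and below it for the lower calls. Among 6 methyl donor genes 3 were higher and 1 lower, and among the 3 testable de novo partners 2 and 1. The deaminases and Gadd45 genes had 4 of 7 higher and 1 lower in proB cells and 6 of 7 higher in preB than in proB cells. Dppa3 and Cxxc4 had 0 counts in every library, where 3 counts, the limit that a count of 0 allows, would be 0.154 to 0.194 CPM.

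The list genes with the largest changes lay at low levels, with Cdca7 and Kdm1b as exceptions. Cdca7, which with the remodeller Hells helps maintain methylation, was at 49.4 and 43.5 CPM in Ergfl/fl pre-proB cells, 291 and 312 CPM in proB cells, and 130 and 130 CPM in preB cells, a rise of 2.73 and a fall of 1.21 on the log2 scale (adjusted p = 1.63e-08 and 6.18e-06). Kdm1b, a histone H3K4 demethylase needed for de novo methylation in oocytes, was at 135 and 154, 80.8 and 67.7, and 217 and 224 CPM in the same order, a log2 rise of 1.58 from proB to preB cells (adjusted p = 6.95e-06). Both genes were thus well measured and went opposite ways after the proB stage. Gadd45g, a stress-response gene linked to DNA repair and demethylation, had 11 counts in the Ergfl/fl pre-proB libraries together, 144 in proB and 469 in preB libraries, and its log2 rises were 3.48 and 1.82 (adjusted p = 1.31e-05 and 9.43e-05). Neil2, a DNA glycosylase, went the other way, with 29 counts in Ergfl/fl pre-proB cells, 1 in proB and 0 in preB cells. Its pre-proB level was 34.2-fold the proB level with a counting interval from 5.67 to 1396, and at least 10.6-fold higher than in preB cells, taking 3 counts over both preB libraries as the limit.

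The genotype comparison asked what was different in pre-proB cells without Erg, and of the 8 genes only Uhrf1 passed the test. Its 106 and 100 CPM in Erg-deficient cells lay below the 145 and 137 CPM of the controls with no overlap, a level 0.723-fold that of Ergfl/fl cells (log2 fold change -0.47 ± 0.0686 SE, adjusted p = 0.0372, 95% interval -0.63 to -0.30). In this comparison 1.16% of 13005 genes passed, 0.215% higher and 0.946% lower. The call was lost with Ergfl/fl replicate 1 left out (log2 fold change -0.42, adjusted p = 0.130), with either Erg-deficient replicate left out (-0.50 and -0.43, adjusted p = 0.180 and 0.188), and with limma-voom (adjusted p = 0.0704), while the direction held in all 12 alternatives. Of the 20 replication genes 0 were called by edgeR, DESeq2 or limma-voom, with log2 differences of -0.34 to 0.05 and a median of -0.17. At an unadjusted p under 0.05, 8 of them were lower by edgeR (2 by DESeq2 and 8 by limma-voom). By edgeR 1624 of all 13005 genes had such an unadjusted p, higher and lower together. Of the 10 mitosis genes 0 were called by any of these tools, and 0 had an unadjusted p under 0.05. Of the 10 B lineage markers, 8 were lower in Erg-deficient cells, and of the 8 natural killer markers 3 were higher. The 2 control libraries differed in their B lineage sums, 1803 against 901 CPM. What part the loss of B lineage RNA had in the Uhrf1 difference was not tested.

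The other 7 genes were not told apart by genotype, with log2 differences from -0.15 for Tet1 to 0.06 for Tet2 and adjusted p from 0.534 to 0.868. Their 95% intervals bound what the data leave room for. The intervals ran from -0.32 to 0.08 for Dnmt1, from -0.19 to 0.09 for Dnmt3a and from -0.43 to 0.14 for Dnmt3b. They ran from -0.36 to 0.06 for Tet1, from -0.19 to 0.30 for Tet2, from -0.23 to 0.05 for Tet3 and from -0.24 to 0.08 for Tdg. Tet3, Tet1, Dnmt3b and Tdg did not overlap between the genotypes and were each lower in the Erg-deficient libraries, by 0.08 to 0.15 on the log2 scale. The 95% interval of each of these genes included 0. How many of all genes did not overlap between the genotypes was not counted, so this is a description only. Of 44 testable pathway genes, 0 passed by edgeR's test or limma-voom and 1, Cdca7, by DESeq2. By edgeR 7 of the 44 were lower at an unadjusted p under 0.05, against 1624 of all 13005 genes higher or lower at that threshold. Cdca7, singled out here after its values were seen, was at 33.6 and 30.2 CPM in Erg-deficient cells against 49.4 and 43.5 CPM in the controls (edgeR log2 difference -0.55, 95% interval -0.79 to -0.32, adjusted p = 0.0615).

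**Figure D5:**
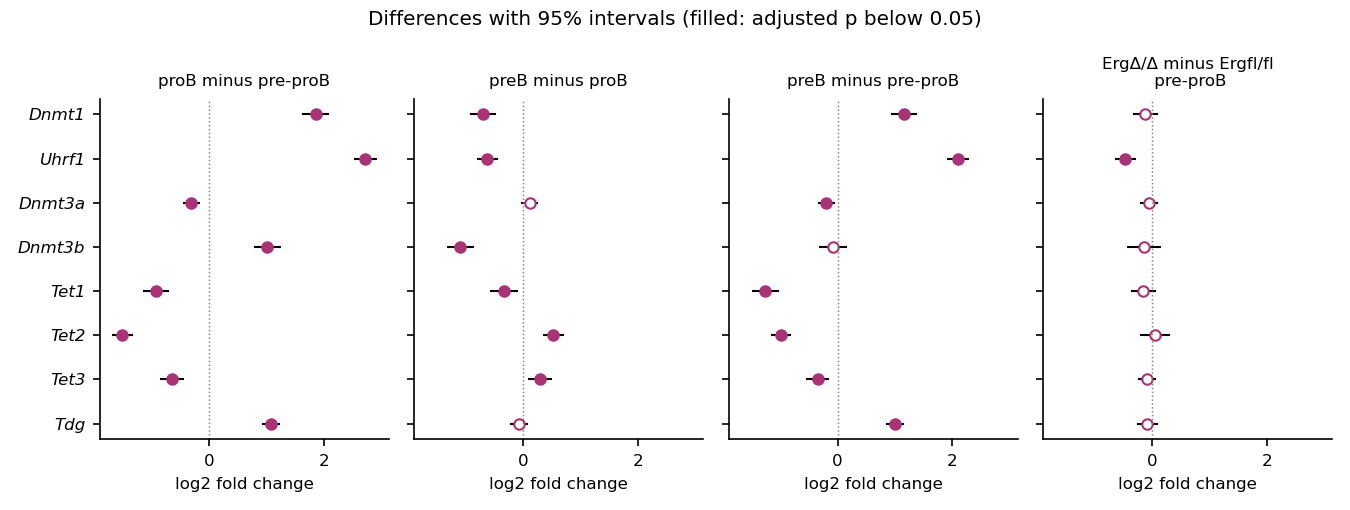
Log2 fold change of each gene in the 3 stage comparisons and the genotype comparison, with 95% intervals from the fit and filled points where the adjusted p was below 0.05. The genotype panel has a single filled point, Uhrf1 at -0.47, while the panel for proB minus pre-proB has 8, from Tet2 at -1.51 to Uhrf1 at 2.72.

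Ordered by mean level, the Erg-deficient pre-proB cells sat beside the Ergfl/fl pre-proB cells for 7 of the 8 genes. The exception was Dnmt3b, whose Erg-deficient libraries overlapped the preB libraries and lay below both Ergfl/fl pre-proB libraries. Against Ergfl/fl proB cells all 8 differed, 4 higher and 4 lower (76.3% of 13815 genes did, 39.6% higher and 36.7% lower), from -3.14 on the log2 scale for Uhrf1 to 1.61 for Tet2. Against Ergfl/fl preB cells 7 of 8 differed, 4 higher and 3 lower (73.0% of genes did, 36.9% higher and 36.2% lower), Dnmt3b being the exception at -0.01 (adjusted p = 0.964, 95% interval -0.23 to 0.22). In these comparisons stage and genotype differ together, and the first shares its proB libraries with the stage comparisons. For Dnmt1 the order was proB, preB, then the 2 pre-proB groups, which were not told apart, and for Uhrf1 it was proB, preB, Ergfl/fl pre-proB and Erg-deficient pre-proB, each step past the threshold. Tdg had proB and preB cells at the top, not told apart, and Dnmt3a had them at the bottom, also not told apart. For Dnmt3b only proB cells stood apart from the other groups. Tet2 and Tet3 ran from the pre-proB groups through preB to proB cells, and Tet1 through proB to preB cells.

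The genes closest in pattern were sought among 9274 genes with a mean of at least 10 CPM, by the root mean square difference (RMS) of log2 CPM, each gene centred on its own mean over the 8 libraries. Nearest to Dnmt1 were Pole2, a DNA polymerase epsilon subunit (RMS 0.0407, r = 0.999), Mcm4 and Plk4. Nearest to Uhrf1 were Rrm2, a ribonucleotide reductase subunit (RMS 0.120, r = 0.996), Hmgb3 and Mex3a. Nearest to Tet2 were Sfi1 (RMS 0.0673), Vav2 and Zfp810, to Tet3 Hmg20b (RMS 0.0340), Hectd4 and Mrtfa, and to Tet1 Zfp219 (RMS 0.0601), Ankmy2 and Ttc3. Dnmt3b lay nearest Fkbp1a (RMS 0.0561), Pkm and Bzw2, Dnmt3a nearest Senp6 (RMS 0.0294), Phf7 and Gga1, and Tdg nearest Btbd10 (RMS 0.0485), Cbx1, a heterochromatin protein, and Maz. These likenesses are over 8 libraries in 4 groups that share the same contrast between pre-proB and later cells, and are given as a description.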

How the data were processed

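RNA-seq counts per Entrez gene of 8 libraries were used. Per the labels and the study's methods, the authors trimmed the paired reads with Trim Galore, aligned them to mm10 (GRCm38) with STAR and counted fragments per gene with featureCounts without normalisation. The submitters' processing notes also list CASAVA 1.8.2. Tool versions other than that, and the strand setting, were not named in those sources. The authors' own fold changes in the supplement were not used, and chromatin data were not analysed here.

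Here the deposited counts were tested with edgeR 4.0.16 (R 4.3.3) by quasi-likelihood F-tests (legacy method) after dropping genes that did not reach 0.5 CPM in 2 or more libraries, with TMM normalisation and Benjamini-Hochberg adjustment over all genes kept. Stages were fitted on the 6 Ergfl/fl libraries (13650 genes), genotypes on the 4 pre-proB libraries (13005 genes), and the cross of stage and genotype on all 8 (13815 genes). Intervals of 95% use the fit's degrees of freedom. FPKM divided CPM by the exon union of GENCODE vM21 basic. Symbols were matched to Entrez identifiers through RefSeq for 25275 of 27179 rows. Ratios for genes with few counts carry exact binomial intervals, which cover counting error only. DESeq2 1.42.0, limma 3.58.1 and the settings named in the closing section were alternatives. The fits were tested on simulated counts.

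The 8 genes and all lists were chosen with earlier results of these data known. Named were all 8 genes, list genes called by genotype, the 3 called list genes with the largest absolute log2 fold change in each stage comparison, and the 3 nearest patterns per gene. A gene that this rule names among the lists is not reported here. Marker genes and maintenance partners named beside their lists were picked after their values were seen, as was the exact permutation test of the ratios to the replication list. Libraries were replicate mice per the methods, 2 a group, and p-values rest on that spread.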

Additional observations from a re-analysis of the deposited data

How the results depend on the processing

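Across the 14 alternatives of each stage comparison (other size factors, no filter or at least 1 CPM, DESeq2, limma-voom, the version 4 quasi-likelihood method, the replicate block, 1 fit of all 8 libraries, and each library left out), every called gene kept its direction. All stayed past the threshold except Tet1 and Tet3 from proB to preB cells, which passed in 12 and 11 of 14. By genotype, the count of called genes was 1 and became 0 with limma-voom (1 at an unadjusted p under 0.05) and 0 to 1 with 1 library left out (1 to 2 unadjusted). Uhrf1 passed in 8 of 12, with log2 fold changes from -0.53 to -0.42. With the replicate block, Uhrf1 was at -0.47 (adjusted p = 0.0285) and no count of called members changed. No label pairs the replicate numbers across groups (correlations of same-numbered deviations -0.0189 to 0.0962). Whether same-numbered libraries of the control stages share a mouse is not stated. Over all genes, the genotype comparison called 151 with the design as fixed and 10 (without Erg-deficient replicate 2) to 442 (1 fit of all 8 libraries) otherwise, limma-voom calling 41 and the block 265. Uncalled differences changed sign for Tet2 by genotype without Erg-deficient replicate 1 (range with 1 library left out -0.10 to 0.19) and for Dnmt3b between Erg-deficient and preB cells with no filter (0.0010) and without preB replicate 2 or Erg-deficient replicate 1 (range -0.068 to 0.059). Taking the longest transcript as gene length, an alternative chosen after seeing the data, moved the Tet and Dnmt3 shares by less than 2 percentage points. With 2 libraries a group, the spread is estimated mostly from all genes together, and small differences were not detectable.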
